A study of Oryza sativa Japonica Group with 17 samples.

Results

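Chromosome-end i-motif (iM) peaks were defined as iM-IP-seq peaks of rice genomic DNA whose summit lay within 500 kb of a chromosome end. The start of a chromosome was taken as position 0 of the MSU v7.0 build, and its far end as the largest peak end found in any of the 10 deposited peak lists. The starts of chromosomes 4, 10, 11 and 12 were left out by the rule, so 20 ends were kept, 8 of them starts, with 10 Mb in all or 2.68% of the length. The rule used the height of no peak, but called peaks set the 12 far ends. Distances to a fixed position of the build can therefore be read only at the 8 starts. Whether known sequence begins at position 0 was not checked. On chromosomes 1 and 8 peaks of several lists began at position 1001, and on chromosome 3 those of demethylated pH 7.0 DNA did. Of 841685 peaks in the 10 lists, 24291 belonged to the chromosome ends, 812670 to the interior and 4724 to the left-out starts.

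The lists came from 5 conditions. CK was genomic DNA of Nipponbare rice seedlings with its methylation unaltered, refolded in vitro and immunoprecipitated (IP) at pH 7.0 with iMab, an antibody fragment that binds iMs. Treatment with M.CviPI, a methyltransferase that acts on C in GpC, gave hypermethylated DNA. Demethylated DNA came from seedlings grown with 80 µM zebularine, an inhibitor of DNA methyltransferases. Both were assayed at pH 7.0 and at pH 5.5. Each condition had 2 iMab libraries, merged before peak calling, with one list called against input DNA and one against an IgG control, and CK at pH 5.5 was not analysed here. All DNA was folded outside the nucleus, so no condition reports on iMs in living cells.

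An iM is a four-stranded fold of a C-rich strand held by pairs of C in which one partner carries a proton, which is why acidic buffers favour it. Chromosome ends are among the best known places for such sequences, since telomeres consist of tandem repeats with one C-rich strand, and iMs of telomeric oligonucleotides have been described in vitro. In rice, the distal arms next to the telomeres are rich in genes, whereas the regions around the centromeres hold many methylated repeats.

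An input-called peak was taken as common when it shared at least 1 bp with an IgG-called peak. Over all chromosomes, 95.5% of input-called peaks were common in CK, 95.1% in hypermethylated pH 7.0 DNA, 90.5% in demethylated pH 7.0 DNA, 89.8% in hypermethylated pH 5.5 DNA and 62.3% in demethylated pH 5.5 DNA. The lists differed in depth. Background coverage, the mean number of IP fragments over a base that the peak caller used, ran from 4.78 to 14.4 fragments over the 10 lists, and IPs had been scaled down in 3 lists. These were the CK lists, to a coverage of 6.005 for input and 11.2 for IgG, and the IgG-called list of demethylated pH 5.5 DNA, from 7.99 to 4.78, which decides the common peaks of that condition. No replicate error exists for any value, and every test below asks whether zones of merged libraries differed over the 12 chromosomes, which are not biological replicates.

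Common iM peaks were denser at chromosome ends than in the interior in demethylated pH 5.5 DNA, and this was the one condition of 5 in which the difference passed the test. In that condition there were 2474 end peaks, or 247.4 per Mb, compared with 202 per Mb in the interior. CK had 1587 end peaks (158.7 per Mb, interior 147 per Mb). Hypermethylated DNA had 1863 at pH 7.0 (186.3 per Mb, interior 181 per Mb) and 2358 at pH 5.5 (235.8 per Mb, interior 221 per Mb). Demethylated pH 7.0 DNA had 2007 (200.7 per Mb, interior 196 per Mb). The densities at the ends were above those of the interior in all 5 conditions, with a ratio of 1.22 in demethylated pH 5.5 DNA and of 1.03 to 1.08 in the other 4.

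Calculated for each chromosome, the log2 ratio of end to interior density in demethylated pH 5.5 DNA was 0.28 ± 0.11 (SD, n = 12 chromosomes) and was above 0 on 12 of 12 chromosomes (two-sided exact sign-flip permutation test, adjusted p = 0.00732). It was lowest on chromosome 9, at 0.058, and highest on chromosome 8, at 0.49. The ratio was 0.087 ± 0.177 in CK (above 0 on 7 of 12 chromosomes, adjusted p = 0.363), 0.030 ± 0.074 in hypermethylated pH 7.0 DNA (8 of 12, 0.363), 0.013 ± 0.129 in demethylated pH 7.0 DNA (6 of 12, 0.794) and 0.079 ± 0.113 in hypermethylated pH 5.5 DNA (10 of 12, 0.171), with SDs over chromosomes and p-values of the same exact permutation test adjusted over 15 tests. In these 4 conditions the mean was smaller than the spread between chromosomes, which is not the error of the mean. Before adjustment the p-value of hypermethylated pH 5.5 DNA was 0.0342 (exact permutation).

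**Figure D1:**
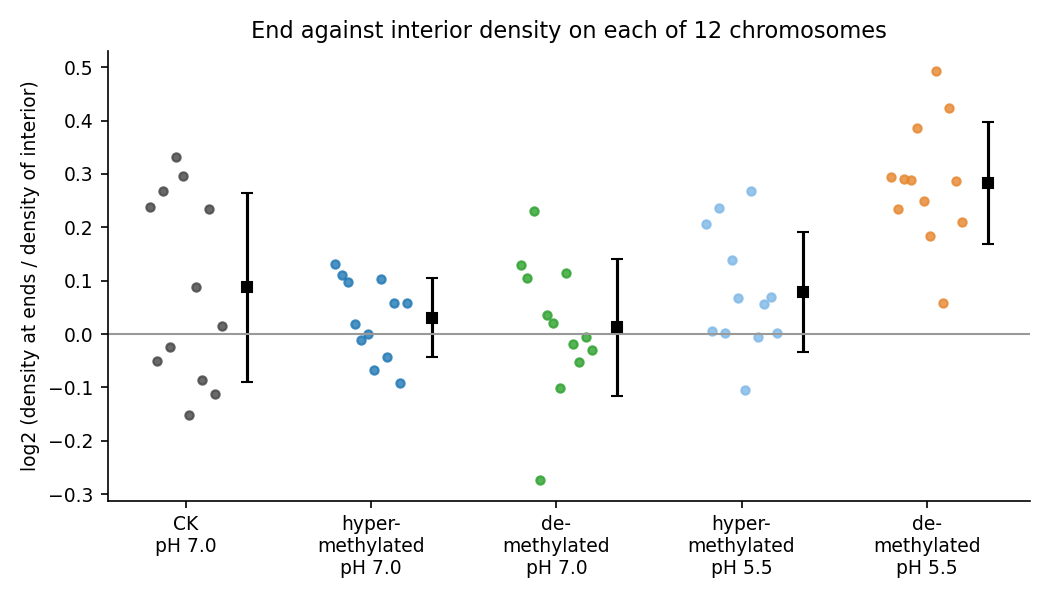
Log2 ratio of common peak density at chromosome ends to that of the interior, by condition. Each point is 1 of 12 chromosomes and black squares with bars are the mean and SD over chromosomes. The points of demethylated pH 5.5 DNA run from 0.058 to 0.49 and all lie above 0, whereas those of the other conditions lie on both sides of 0.

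The size of the difference in demethylated pH 5.5 DNA moved with the list used. At its chromosome ends 67.8% of input-called peaks had an IgG-called partner, compared with 62.1% in the interior, and the log2 density ratio was 0.155 with all input-called peaks (adjusted p = 0.0110, exact permutation) and 0.293 with all IgG-called peaks (adjusted p = 0.00732, exact permutation). It was 0.313 at the far ends alone (adjusted p = 0.00732, exact permutation), and 0.220 at the 8 starts alone, above 0 on 8 of 8 chromosomes, where a single result could not pass after adjustment (adjusted p = 0.117, exact permutation). CK had 2764 end peaks in its IgG-called list, of which 55.9% overlapped an input-called peak. With IgG-called peaks alone the CK log2 density ratio was 0.114 and passed the test (above 0 on 11 of 12 chromosomes, adjusted p = 0.00732, exact permutation).

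When conditions were set against each other, the end to interior log2 density ratio of demethylated DNA was higher at pH 5.5 relative to pH 7.0 by 0.27 ± 0.15 (SD over 12 chromosomes, higher on 12 of 12, exact sign-flip permutation test, adjusted p = 0.00293 over 12 tests). At pH 5.5 the ratio of hypermethylated DNA minus that of demethylated DNA was -0.20 ± 0.10 (lower on 12 of 12, exact permutation, adjusted p = 0.00293). Both differences contain the same pH 5.5 lists of demethylated DNA. For hypermethylated DNA the difference between pH 5.5 and pH 7.0 was 0.048 ± 0.093 (adjusted p = 0.243, exact permutation). At pH 7.0, hypermethylated DNA differed from CK by -0.057 ± 0.159, demethylated DNA from CK by -0.075 ± 0.165, and hypermethylated from demethylated DNA by 0.018 ± 0.109, each within the spread between chromosomes (adjusted p between 0.284 and 0.772, exact permutation). Differences between conditions in the end to interior log2 fold did not pass in any of the 6 pairs (adjusted p between 0.0820 and 0.789, exact permutation).

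Density did not fall steadily with distance from the ends. In every condition it was lowest between 500 and 1000 kb, and higher both in each bin from 50 to 400 kb and beyond 10000 kb. The last 5 kb had 230 to 280 peaks per Mb, but this bin holds only 23 to 28 peaks per condition, and a peak of some list lies at each far end by construction. Between 5 and 50 kb the densities were 146 per Mb in CK, 164 and 184 in hypermethylated and demethylated pH 7.0 DNA, and 219 and 236 at pH 5.5, which in the first 4 was below the value beyond 10000 kb. CK had 174.5 peaks per Mb between 100 and 200 kb, 121 between 400 and 500 kb, 113 between 500 and 750 kb and 161 beyond 10000 kb. Hypermethylated pH 5.5 DNA had 258.5 peaks per Mb between 100 and 200 kb, 175.6 between 750 and 1000 kb and 239 beyond 10000 kb. Hypermethylated and demethylated pH 7.0 DNA had 207.5 and 228 per Mb between 100 and 200 kb, 141.4 and 150.8 between 750 and 1000 kb, and 194 and 213 beyond 10000 kb. Demethylated pH 5.5 DNA had the highest value of the 5 conditions between 100 and 200 kb, 283 per Mb, but only 204 beyond 10000 kb, which was below hypermethylated pH 5.5 DNA and demethylated pH 7.0 DNA.

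**Figure D2:**
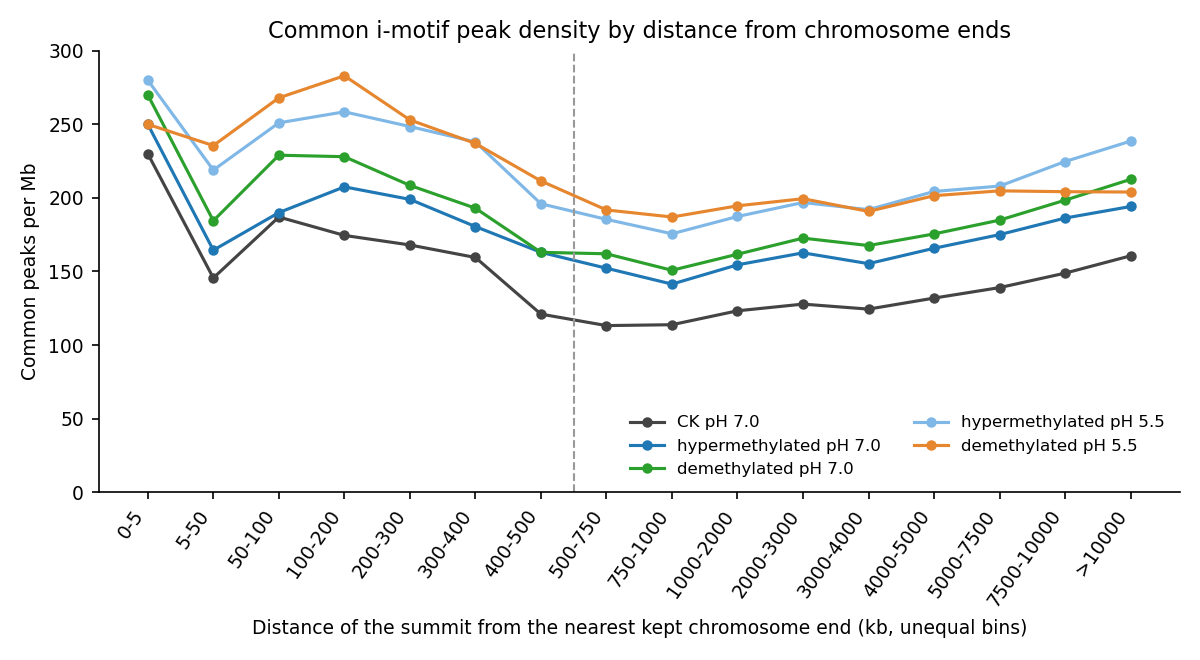
Common peaks per Mb by distance of the summit from the nearest kept chromosome end, in bins of unequal width, with a dashed line at 500 kb. All 5 lines dip between 500 and 1000 kb. Beyond 5000 kb the line of demethylated pH 5.5 DNA stays near 204 per Mb, whereas the other 4 rise.

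This shape made the result depend on what the ends were compared with. Against the neighbouring 500 to 5000 kb alone, where densities were 125 to 196 per Mb, ends were denser in all 5 conditions. The log2 ratio was then 0.33 in CK, 0.24 in hypermethylated and 0.25 in demethylated pH 7.0 DNA, 0.28 in hypermethylated pH 5.5 DNA and 0.35 in demethylated pH 5.5 DNA (adjusted p between 0.00183 and 0.00293, exact permutation), and it was above 0 on 11 or 12 of 12 chromosomes. The difference between demethylated pH 5.5 DNA and pH 7.0 shrank to 0.098 and no longer passed (adjusted p = 0.186, exact permutation), as did that between the treatments at pH 5.5, at -0.061 (0.186). With a window of 1000 kb in place of 500 kb, the log2 ratio against the interior turned below 0 and passed the test in the 4 other conditions, between -0.15 and -0.10 (adjusted p between 0.00366 and 0.0176, exact permutation), and stayed above 0 in demethylated pH 5.5 DNA, at 0.10 (0.00366).

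Single ends varied widely. Common peaks per end numbered 43 to 121 in CK (median 77), 72 to 109 in hypermethylated pH 7.0 DNA (median 95), 77 to 122 in demethylated pH 7.0 DNA (median 100.5), 87 to 139 in hypermethylated pH 5.5 DNA (median 118.5) and 103 to 153 in demethylated pH 5.5 DNA (median 122). The far end of chromosome 9 had the fewest peaks in the first 4 of these conditions, with 43, 72, 77 and 87 peaks, and 108 in demethylated pH 5.5 DNA. The start of the same chromosome had the most peaks in hypermethylated and demethylated pH 7.0 DNA, 109 and 122, and 139 in hypermethylated pH 5.5 DNA, but 104 in demethylated pH 5.5 DNA, close to its lowest value of 103 at the start of chromosome 2. The far end of chromosome 5 had the most in CK, 121, and in demethylated pH 5.5 DNA, 153.

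All 20 ends of demethylated pH 5.5 DNA exceeded the interior density of that condition, compared with 12 ends in CK, 13 and 14 in hypermethylated pH 7.0 DNA and pH 5.5, and 15 in demethylated pH 7.0 DNA. Demethylated DNA had more peaks at the lower pH at 19 of 20 ends, the exception being the start of chromosome 9, and hypermethylated DNA at 20 of 20. The interior was also denser at pH 5.5 relative to pH 7.0, at 221 against 181 per Mb in hypermethylated and 202 against 196 in demethylated DNA. These counts of ends alone therefore show nothing particular to the ends. Over the 20 ends, Spearman's rho between the counts of demethylated pH 5.5 DNA and those of the treated DNA at pH 7.0 was 0.45 and 0.48, and in the other 8 pairs of conditions it was 0.61 to 0.88. All pairs share the same 20 stretches of sequence, so these values are a description only.

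**Figure D3:**
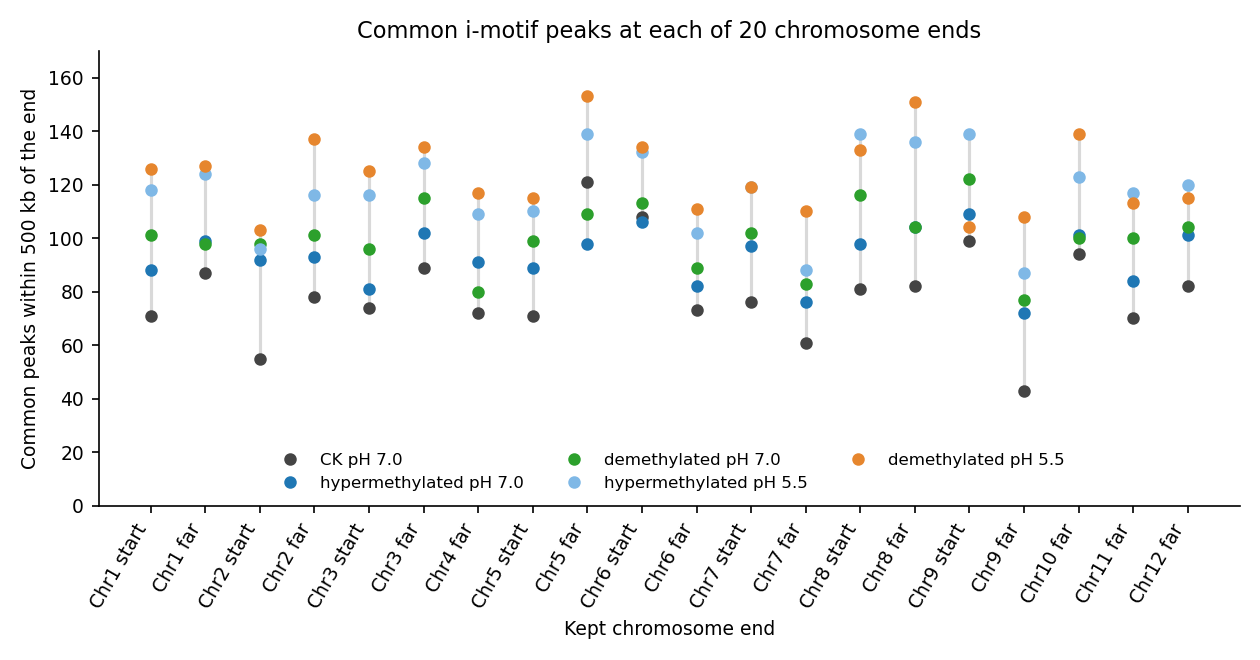
Number of common peaks within 500 kb of each of the 20 kept chromosome ends, with 1 point per condition and a grey line over the range of the 5 conditions. Counts run from 43 in CK at the far end of chromosome 9 to 153 in demethylated pH 5.5 DNA at the far end of chromosome 5.

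Enrichment and width of common peaks differed little between ends and interior. The fold is the ratio of IP fragments at the summit to the local control level, as the peak caller computed it. Its median at ends and in the interior was 3.45 and 3.53 in CK, 4.67 and 4.68 in hypermethylated pH 7.0 DNA, 3.59 and 3.67 in demethylated pH 7.0 DNA, 4.15 and 4.16 in hypermethylated pH 5.5 DNA, and 5.42 and 5.29 in demethylated pH 5.5 DNA. Per chromosome, differences of median log2 fold lay between -0.030 and 0.038, and none passed the exact permutation test (adjusted p between 0.363 and 0.796). The largest difference of median width was that of demethylated pH 5.5 DNA, 365.5 bp at ends and 336 bp in the interior, with a mean of 23.5 ± 23.7 bp over chromosomes (wider on 11 of 12, adjusted p = 0.0769, exact permutation). It passed under 7 of 15 alternatives, at 14.9 to 36.9 bp. In the other conditions the mean difference was 5.83 to 16.4 bp (adjusted p between 0.363 and 0.763, exact permutation).

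Peaks with a raised control level were more frequent at the ends in all 5 conditions. In CK, 44.7% of common end peaks and 39.0% of interior peaks had a local input level over 2 times background. In hypermethylated and demethylated pH 7.0 DNA this was 1.72% and 2.39% of common end peaks, compared with 0.679% and 0.690% of interior peaks. At pH 5.5 it was 2.21% and 2.91%, compared with 0.937% and 1.23%. Their part in the densities was not tested. Peaks with a fold of at least 10 made up 1.51% of common end peaks in CK, 11.2% in hypermethylated and 2.84% in demethylated pH 7.0 DNA, and 5.77% and 11.2% at pH 5.5, compared with 0.615%, 10.8%, 2.18%, 5.23% and 9.04% in the interior. The CK share rests on 24 end peaks. Among all IgG-called peaks of CK it was 5.54% at ends and 5.87% in the interior, whereas in the other conditions it was higher at ends. In hypermethylated and demethylated pH 5.5 DNA the highest fold of all common peaks of these zones lay at an end, at 109.8 and 49.8, compared with 55.5 and 29.8 in the interior. In the other 3 conditions it lay in the interior, at 33.2 in CK (ends 18.1), 1417 in hypermethylated pH 7.0 DNA (ends 86.3) and 37.8 in demethylated pH 7.0 DNA (ends 33.1). These folds are against input. Among all IgG-called peaks the highest fold at pH 5.5 lay in the interior, at 32.9 in hypermethylated (ends 28.2) and 22.5 in demethylated DNA (ends 18.7).

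The last 5 kb held the end peaks of highest fold in hypermethylated DNA at both pH values and in demethylated pH 7.0 DNA, but not in CK or in demethylated pH 5.5 DNA. Leaving out the last 5 kb changed none of the 5 density calls. To describe these tips, the peak with the most IP fragments within 5 kb of each end was taken from every list, and the fold was resolved into the IP level at the summit and the local control level, each as a multiple of background coverage. At 7 ends the IP level exceeded 50 times background in hypermethylated pH 5.5 DNA. These were the starts of chromosomes 1, 2, 5 and 8 and the far ends of chromosomes 4, 6 and 7, and they were singled out after their values were seen, so no test was made.

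At these 7 ends the IP level was far above background in all 5 conditions, while the fold against input was not. The median IP level over the 7 ends was 46.4 times background in CK, 62.9 in hypermethylated and 49.2 in demethylated pH 7.0 DNA, and 94.8 and 62.3 at pH 5.5. The ends were chosen on the IP level of hypermethylated pH 5.5 DNA, so the choice favours that condition and the order is a description only. In CK the input-called peak of the far end of chromosome 7 lay 606 bp from the end, at 13.4 times background. Its IgG-called peak there lay 98 bp from the end, at 49.4 times background. The median fold against input was 3.196 in CK, 43.3 in hypermethylated and 24.2 in demethylated pH 7.0 DNA, and 65.1 and 19.2 at pH 5.5. The median control level was 17.7 times background in CK, and 1.44, 3.43, 1.62 and 2.51 times background in the treated conditions in the same order. The low folds of CK at the tips thus stood beside a high input level, while its median IP level was close to that of demethylated pH 7.0 DNA. The IgG control of CK was raised there too, at a median of 10.8 times background. In hypermethylated and demethylated pH 7.0 DNA and hypermethylated pH 5.5 DNA it was 4.21, 4.92 and 4.37. The median fold against IgG was 3.98 in CK, and 25.3, 13.1 and 19.9 in those conditions. In demethylated pH 5.5 DNA, where 4 of the 7 ends had an IgG-called peak, the IgG level was 21.2 and the fold 2.62. Raised input levels in CK were not particular to the tips. They were found at 39.0% of its common interior peaks, compared with 0.679% to 1.23% in the other conditions. The 2 input libraries of the series were of treated DNA, so the input used for CK was not among its samples.

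The start of chromosome 8 shows this in one peak, with its summit 1206 or 1207 bp from position 0 in all conditions (MSU v7.0, positions 1001 to 2446 in hypermethylated pH 7.0 DNA). The summit held 1365 fragments in CK, 1700 in hypermethylated and 1700 in demethylated pH 7.0 DNA, 1772 in hypermethylated and 899 in demethylated pH 5.5 DNA. Relative to background these were IP levels of 111, 149, 118, 189 and 112. The input level was 34.0 times background in CK, 1.64 and 3.96 in hypermethylated and demethylated pH 7.0 DNA, and 1.62 and 4.72 at pH 5.5. The folds against input were 3.26 in CK, 86.3 and 29.2 at pH 7.0, and 109.8 and 23.2 at pH 5.5, the highest of any end peak in both hypermethylated conditions.

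Against IgG the order at the same summit was different. The fold was 3.86 in CK, 25.3 and 16.5 in hypermethylated and demethylated pH 7.0 DNA, and 19.9 and 1.41 at pH 5.5. The IgG level was 28.7 times background in CK. In demethylated pH 5.5 DNA it reached 79.1 times background, the highest control level of any tip peak. In that IgG-called list only 4 of the 7 ends had a tip peak, with folds of 1.41 to 2.82, whereas its input-called list had all 7, with folds of 9.82 to 40.8. The peak of chromosome 6 among these 4 lay 928 bp from the end, away from the summit of the input-called peak, and had an IP level of only 4.63 times background. At the starts of chromosomes 2 and 5, where no IgG-called peak lay at the tip, the first common peak of this condition was 8210 and 10619 bp from position 0. In demethylated pH 7.0 DNA the end peak of highest fold was also a tip, 150 bp from the far end of chromosome 4 (chr4:35502191-35502694), with a fold of 33.1 against input and 12.8 against IgG.

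**Figure D4:**
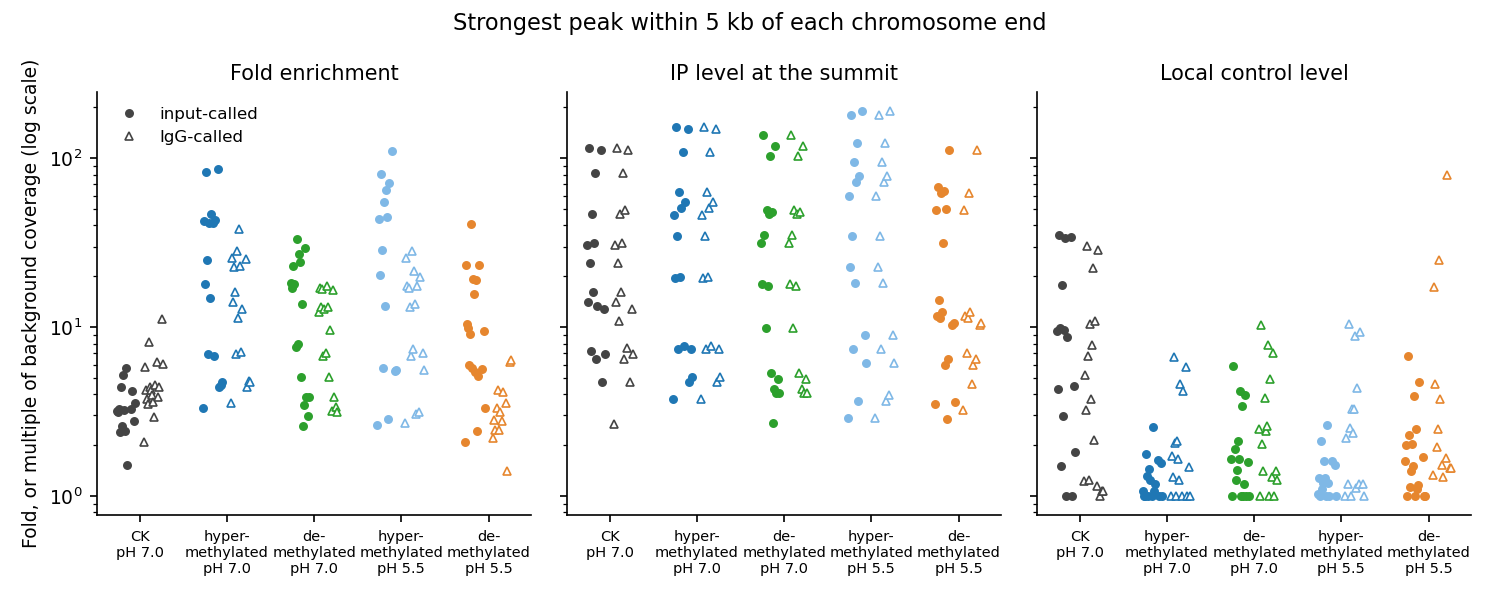
Strongest peak within 5 kb of each chromosome end in every list, on a log scale, as fold enrichment, IP level at the summit and local control level, the latter both as multiples of background coverage. Each point is 1 end, filled circles are input-called and open triangles IgG-called peaks. The CK folds stay at or below 11.1 although CK has IP levels up to 115, and the highest control level, 79.1, belongs to the IgG-called list of demethylated pH 5.5 DNA.

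At the other starts peaks were weaker or farther in. The common peak nearest to position 0 on chromosome 3 lay at 1097 to 1492 bp in the treated conditions, with folds of 5.76 to 7.60, and at 4925 bp in CK, with a fold of 4.45. CK also had an IgG-called peak at 1486 bp, with a fold of 8.13 against IgG, but no input-called peak over it. On chromosome 6 it lay at 2836 to 4008 bp with folds of 1.54 to 6.71. Chromosome 7 had its first common peak at 36096 bp in CK, 17749 and 9081 bp in hypermethylated and demethylated pH 7.0 DNA, and 13451 and 7971 bp at pH 5.5, with folds of 2.57 to 5.41. Chromosome 9 had none before 38948 bp in any condition, and the folds there were 2.58 to 4.12.

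Whether ends held their own condition-specific peaks was asked with 12 directed comparisons in 6 pairs of conditions, in which a specific peak was a common peak without a common peak of the other condition over it. In 10 of the 12 the specific share at the ends was close to that of the interior. The exceptions were both shares of peaks missing from demethylated pH 5.5 DNA, and both were lower at the ends. Both use the same partner list, which was denser at the ends (247.4 per Mb) than in the interior (202 per Mb). A denser partner list leaves fewer peaks without a partner, so these 2 results are not separate from the density result or from each other. Of the end peaks of demethylated pH 7.0 DNA, 574 of 2007 (28.6%) were absent at pH 5.5, compared with 37.4% in the interior and 37.1% of all peaks. The difference per chromosome was -8.96 ± 3.63 percentage points (SD, lower on 12 of 12 chromosomes, exact permutation, adjusted p = 0.00293). Of the end peaks of hypermethylated pH 5.5 DNA, 796 of 2358 (33.8%) were absent in demethylated DNA at the same pH, compared with 41.3% in the interior and 41.0% of all peaks, a difference of -7.28 ± 3.08 points (12 of 12, exact permutation, adjusted p = 0.00293). With peaks of at least fold 4 neither passed, at -3.31 and -2.56 points (adjusted p = 0.519 and 0.227, exact permutation).

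The reverse shares were at the background of the whole list. Demethylated pH 5.5 DNA had 885 end peaks (35.8%, all peaks 35.6%) without a partner at pH 7.0, and 889 (35.9%, all peaks 36.1%) without a partner in hypermethylated pH 5.5 DNA. In hypermethylated DNA 694 end peaks (29.4%, all peaks 28.4%) were specific to pH 5.5 and 378 (20.3%, all peaks 20.6%) to pH 7.0. Relative to CK, 662 end peaks of hypermethylated DNA (35.5%, all peaks 36.3%) and 762 of demethylated DNA (38.0%, all peaks 38.6%) were specific at pH 7.0. CK had 209 end peaks (13.2%, all peaks 13.6%) absent in hypermethylated DNA and 172 (10.8%, all peaks 10.6%) absent in demethylated DNA. Between the treatments at pH 7.0, 326 end peaks (17.5%, all peaks 17.8%) were specific to hypermethylated and 455 (22.7%, all peaks 23.5%) to demethylated DNA. The differences between ends and interior in these 10 comparisons were between -1.37 and 1.30 points per chromosome (adjusted p between 0.563 and 0.896, exact permutation).

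**Figure D5:**
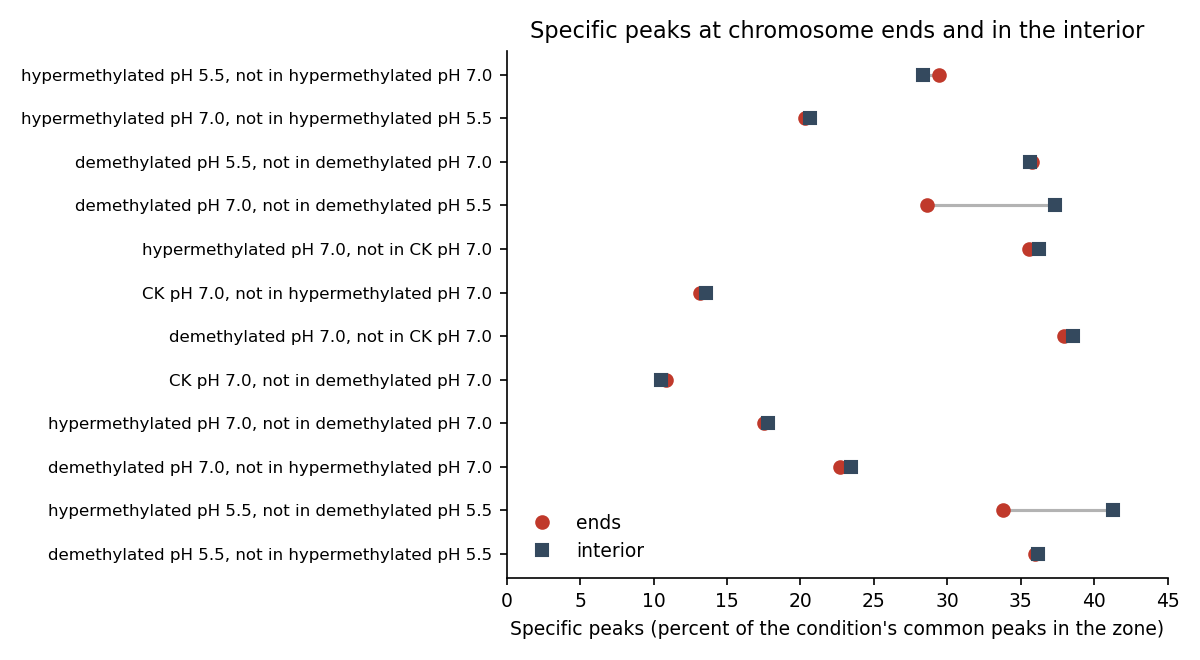
Share of common peaks without a partner in the other condition, in percent, at chromosome ends (circles) and in the interior (squares), for 12 directed comparisons. Ends and interior lie apart for the shares missing from demethylated pH 5.5 DNA, 28.6% against 37.4% and 33.8% against 41.3%, and within 1.1 points of each other elsewhere.

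Many specific end peaks were called in the other condition but not as common peaks. Of the 662 end peaks of hypermethylated DNA that were specific relative to CK, 462 (69.8%, interior 64.6%) overlapped an IgG-called peak of CK, as did 542 (71.1%, interior 62.9%) of the 762 specific to demethylated pH 7.0 DNA. The IgG-called list of CK is the longer of its pair over the whole genome, with 94627 peaks against 57676. Of the 574 end peaks of demethylated DNA specific to pH 7.0, 237 (41.3%, interior 41.5%) overlapped an input-called and none (interior 0.250%) an IgG-called peak at pH 5.5. The latter could hardly occur, since 99.8% of IgG-called end peaks of that condition (interior 99.5%) overlapped an input-called peak. Specific end peaks had lower folds than shared ones, for instance a median of 3.00 against 3.85 for demethylated pH 7.0 DNA relative to pH 5.5 (interior 3.03 against 4.20), and 3.40 against 5.71 for hypermethylated pH 7.0 DNA relative to CK (interior 3.54 against 5.71).

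The strongest specific end peaks, ranked by −log10 q-value of the input-called list, illustrate the same point. The strongest one of demethylated pH 7.0 DNA relative to pH 5.5 was the tip of chromosome 2 (chr2:23-531, fold 23.0), and that of hypermethylated relative to demethylated pH 5.5 DNA covered the same place (chr2:6-493, fold 80.8). There demethylated pH 5.5 DNA had an input-called peak with a fold of 9.82 but no IgG-called peak. The strongest peak of demethylated DNA specific to pH 5.5 relative to pH 7.0 lay 103481 bp from the start of chromosome 5 (chr5:103314-103979, fold 15.5), where the pH 7.0 input-called peak had a fold of 4.21. Hypermethylated pH 7.0 DNA had at this place its strongest peak relative to demethylated DNA (chr5:103323-103653, fold 9.42). Relative to CK, the strongest peak of hypermethylated DNA lay near the start of chromosome 9 (chr9:82737-83722, fold 14.2), where CK had an IgG-called peak with a fold of 4.19, and that of demethylated DNA on chromosome 2 (chr2:361249-361739, fold 13.2), where CK had an input-called peak with a fold of 3.58. In 1 of the 12 comparisons the strongest peak had no peak of either list in the other condition, a pH 5.5 peak of hypermethylated DNA at the far end of chromosome 12 (chr12:27299215-27299439, fold 8.29).

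In CK and in demethylated pH 5.5 DNA the end peak of highest fold lay outside the tips. In CK it was a peak 180462 bp from the start of chromosome 9 (chr9:180297-180718), with a fold against input of 18.1 in CK, 24.0 and 18.3 in hypermethylated and demethylated pH 7.0 DNA, and 15.1 and 21.9 at pH 5.5. Its input level was at background in all 5 conditions. In demethylated pH 5.5 DNA it was a peak 64714 bp from the start of chromosome 6 (chr6:64632-64857), with a fold of 49.8 there, 5.26 in CK, 15.3 and 11.7 in hypermethylated and demethylated pH 7.0 DNA, and 19.4 in hypermethylated pH 5.5 DNA. The IP level of the latter was 43.6 to 71.2 times background in the 5 conditions. Its input level was 11.7 times background in CK, 3.73 and 3.67 in hypermethylated and demethylated pH 7.0 DNA, and 2.98 and 1.31 at pH 5.5. Against IgG its fold was 3.27 in CK, 9.01 and 5.10 at pH 7.0, and 9.24 and 7.76 at pH 5.5, in the same order. Demethylated pH 5.5 DNA thus had the highest fold at this peak against input but not against IgG.

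After overlapping common peaks of the 5 conditions had been merged into regions, the chromosome ends held 3212 of 113086 regions. Of the end regions, 902 (28.1%, all regions 26.6%) were found in each of the 5 conditions and 1019 (31.7%, all regions 30.6%) in 1 condition. Per chromosome, these shares were higher at the ends than in the interior by 1.36 ± 3.56 and 1.22 ± 2.73 points, less than the spread between chromosomes (adjusted p = 0.219 for both, exact permutation). Of the end regions in 1 condition, 520 belonged to demethylated pH 5.5 DNA (16.2% of end regions, all regions 13.8%), 268 to hypermethylated pH 5.5 DNA (8.34%, all regions 8.44%), 133 and 75 to demethylated and hypermethylated pH 7.0 DNA (4.14% and 2.33%, all regions 5.02% and 2.51%), and 23 to CK (0.716%, all regions 0.809%). The order is that of the whole genome. Regions missing only from demethylated pH 5.5 DNA numbered 158 at the ends (4.92%, all regions 6.52%), and those missing only from CK 202 (6.29%, all regions 5.55%). Regions found in both pH 5.5 conditions and in no pH 7.0 condition numbered 85 (2.65%, all regions 2.26%), and those found in all 3 pH 7.0 conditions and in no pH 5.5 condition 12 (0.374%, all regions 0.705%). These shares were not tested.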

How the data were processed

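iM-IP-seq of rice DNA gave 17 libraries (10 iMab, 5 IgG, 2 input). The authors aligned reads with BWA to MSU v7.0, filtered them with SAMtools and Picard, merged both iMab libraries of each condition and ran MACS2 2.1.1 for peaks at a q-value threshold of 0.05, so replicate spread is lost. The deposited lists give the position, the fold enrichment (a ratio of pileup plus 1 to control level plus 1), the −log10 of the p-value and of the q-value, and a score that the authors' caller derived from the q-value. Depth was not given in the lists, so fold and −log10 p were solved for IP fragments and control level, a step tested on simulated data. Of 71 tip summits within 10 bp in both lists of a condition, 67 gave the same fragment number.

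End and interior were compared per chromosome (density, median log2 fold, median width, specific shares) with a two-sided exact sign-flip permutation test over 12 chromosomes (4096 patterns, smallest p = 0.000488), with Benjamini-Hochberg adjustment within families of 15, 12, 12 and 2 tests. Fold and width are of the input-called peak. Regions were placed by their midpoint. Peaks named are, per condition, the end peak of highest fold, the one nearest each start and the specific one of highest −log10 q-value, with the ends of most and fewest peaks. Alternatives were other lists, thresholds, windows, interiors, overlaps and ends; one coverage, fold of at least 4 and no last 5 kb were added after seeing the data. Members and lists were chosen with earlier results of these data known. The demethylated pH 7.0 lists were assigned by their own name, since the descriptions of those IP libraries name another list. Sequence, gene annotation, CK at pH 5.5 and a CK input library were not analysed here. Calculations used Python 3.11.15, numpy 2.4.6, pandas 2.3.3 and scipy 1.17.1.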

Additional observations from a re-analysis of the deposited data

Results flagged for a closer look

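Differences between conditions in the end to interior log2 density ratio stood out for demethylated DNA at pH 5.5 against pH 7.0, at 0.271, and for hypermethylated against demethylated DNA at pH 5.5, at -0.205, because the test of the difference itself passed (adjusted p = 0.00293 for both, exact sign-flip permutation over 12 chromosomes). Both contain the same 2 lists of demethylated DNA at pH 5.5, which had the lowest background coverage of the 5 IgG-called lists and the lowest common share of input-called peaks. At one coverage they were 0.276 and -0.191. For this, the solved levels of all lists were scaled to a coverage of 4.78 and called peaks were filtered again by p-value. No peaks were called anew, so the part of depth was not tested.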

How the results depend on the processing

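No paired analysis was possible because replicates had been merged ahead of peak calling, which also means that none could be omitted. Over 41 results and 590 alternative values, 533 kept their side of the threshold, of which 99 changed sign with neither value past it, while 40 newly passed, 11 no longer passed and 6 reversed. The cause was not tested. Values are end minus interior, or differences between conditions of these (log2 for density and fold, bp for width, percentage points for shares).

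With all IgG-called peaks, density passed in CK (0.114) and hypermethylated pH 5.5 DNA (0.0881), width in CK (17 bp) and demethylated pH 5.5 DNA (14.9), and fold in CK turned to 0.0581. Against CK, the density ratio passed for hypermethylated (-0.0853) and demethylated (-0.078) pH 7.0 DNA, as did the specific shares (-2.26 and -3.39), and the fold difference of demethylated DNA turned to -0.0842. The fold difference of demethylated DNA between pH values passed at 0.0724 and the share in all conditions at 2.89. With all input-called peaks, demethylated pH 5.5 DNA passed for fold (0.0964) and width (20.5), and its fold differed from pH 7.0 (0.131) and from hypermethylated DNA (-0.0957). With means, the first 3 of these were 0.0597, 31.7 and 0.0688. The same width was 24.2 at a −log10 q-value of at least 5 and 36.9 in a 250 kb window.

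With a 1000 kb window, density reversed in CK (-0.132), hypermethylated (-0.138) and demethylated (-0.154) pH 7.0 DNA and hypermethylated pH 5.5 DNA (-0.102). Fold of demethylated pH 7.0 DNA (-0.0418), its difference from pH 5.5 (0.0832), the share specific to pH 5.5 in hypermethylated DNA (2.79) and that of regions in 1 condition (2.30) newly passed. Against the neighbouring 500 to 5000 kb, density passed in the same 4 conditions (0.334, 0.239, 0.248, 0.284), as did width in hypermethylated (33.7) and demethylated (38.6) pH 7.0 DNA and at pH 5.5 (23.7 and 31.6), and the share in all conditions (3.30), while the 2 differences between conditions no longer passed (0.0981 and -0.0614). At one coverage these were 0.341, 0.235, 0.241 and 0.297 for density, 37.5, 54.9 and 31.0 for width in the treated pH 7.0 DNA and demethylated pH 5.5 DNA, and 0.108 and -0.0521.

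With the 8 starts only, none of the calls passed: density of demethylated pH 5.5 DNA (0.220), both differences (0.0971 and -0.0856) and both shares (-6.14 and -6.20). With 8 chromosomes the smallest p is 0.00781 before adjustment, so a single result cannot pass. Both differences were also nearer 0 there than with all kept ends, where they were 0.271 and -0.205. With a fold of at least 4 the shares no longer passed (-3.31 and -2.56), and that of regions in 1 condition did (3.70).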
